A study of Monodelphis domestica with 7 samples.

Results

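Immune cells of the myeloid lineage, which include microglia and macrophages, sense injury through receptors that carry little signalling machinery of their own. Activating receptors such as TREM2 pair with small adaptors, TYROBP (DAP12) or FCER1G, whose cytoplasmic ITAM motifs recruit the kinase SYK and start a cascade through LCP2, VAV1 and phosphoinositide 3-kinases. Inhibitory receptors, among them several Siglecs, carry ITIM motifs that recruit phosphatases such as PTPN6, and docking proteins such as DOK3 dampen the same cascade. In the brain and spinal cord TREM2 is best known as a receptor of microglia that binds lipids and supports the clearance of cell debris and myelin.

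The 5 genes described here were chosen by gene identifier from the 21314 rows of the count table, and all 5 passed the filter on low counts that 13534 genes passed. They are TREM2 (ENSMODG00000029774), FCER1G (ENSMODG00000005124), a gene the study describes as similar to the platelet collagen receptor GP6 (ENSMODG00000003816, called GP6-like below), a gene described as similar to SIGLEC10, SIGLEC11 and SIGLEC16 (ENSMODG00000020825, called SIGLEC10-like) and DOK3 (ENSMODG00000004674). Their symbols and descriptions come from the study's own tables of genes it called in these libraries, so that they were measured as changed somewhere in this experiment is not independent evidence. No map of the genome build used for the counts was at hand, and positions of the genes are therefore not given.

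The material was spinal cord of *Monodelphis domestica*, the grey short-tailed opossum, a marsupial born at a very immature stage, with pups of both sexes used. The cord was cut completely at thoracic level 10 on postnatal day 7 or postnatal day 28, and the segment rostral to the cut was taken 24 h later (P7+24h injured and P28+24h injured). Controls were the matching segments of uninjured cords at P8 and P29, the P8 controls coming from other litters than the injured pups and the P29 controls being anaesthetised littermates. There were 7 libraries, each a pool of 2 individuals, with 2 for P8 control, 2 for P7+24h injured, 1 for P29 control and 2 for P28+24h injured. Replicate 1 of each group was sequenced in run 1 and replicate 2 in run 2, from separately collected animals, so that collection and sequencing cannot be told apart, and the P29 control was sequenced in run 1 alone.

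Library totals lay between 3332232 and 6256074 counts, and every run 2 library was deeper than every run 1 library. Levels are given as CPM (counts scaled to 1000000 counts of the library). Since CPM takes no account of gene length, levels are compared between libraries and not between genes. At this depth 3 counts, taken as the floor that a count of 0 allows, correspond to between 0.449 and 1.06 CPM after TMM scaling (the trimmed mean of M-values, which corrects for a few abundant genes). Intervals on counts and floors cover counting error only. In RNA from whole tissue, more cells of a type and more RNA per cell cannot be told apart.

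TREM2, GP6-like, SIGLEC10-like and the receptor subunit FCER1G, called the 4 receptor genes below, were lowest in the P8 controls and highest after injury at P28. In each of them both P7+24h injured libraries lay above both P8 controls, as in 8.55% of all genes tested. Both P28+24h injured libraries lay above the P29 control in each of them, as in 22.2% of all genes tested. DOK3 followed another order, with 0 counts in the P29 control and overlapping levels elsewhere. The plot of the 5 genes by library shows these levels.

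**Figure D1:**
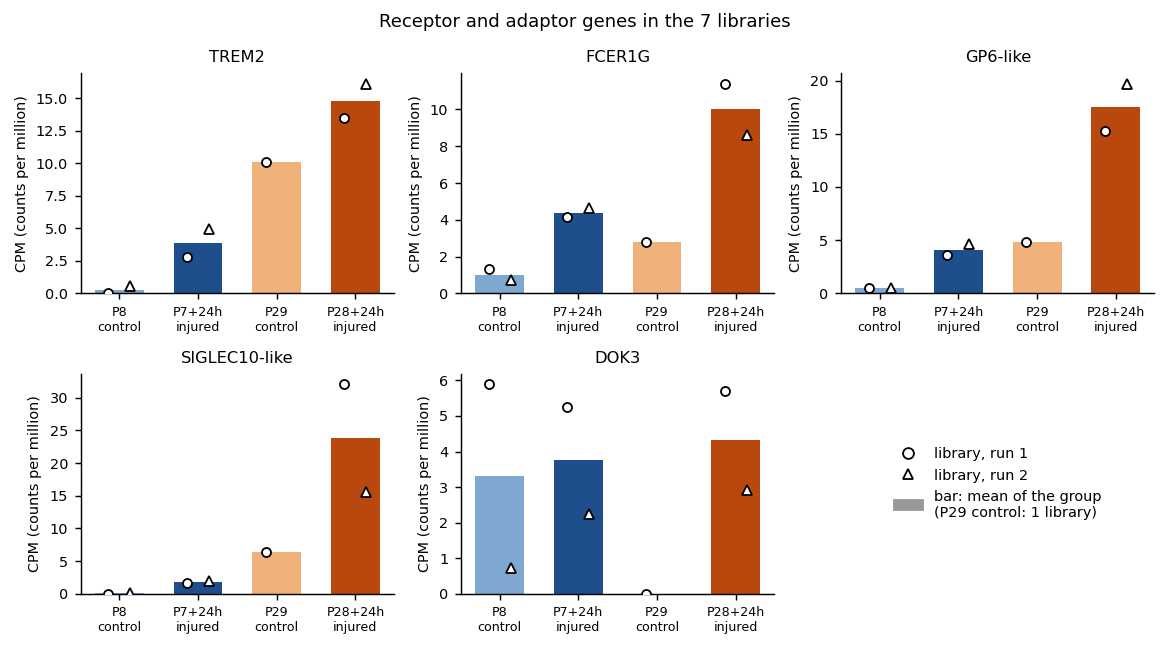
CPM (vertical axis, starting at 0 and different in each panel) of TREM2, FCER1G, GP6-like, SIGLEC10-like and DOK3 in the 4 groups, with circles for run 1 libraries, triangles for run 2 libraries and bars for group means (n = 2, and 1 for the P29 control). The first 4 genes are lowest in the P8 controls and highest in the P28+24h injured cords, while DOK3 is at 0 in the P29 control and higher in run 1 than in run 2 in each group that has both.

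TREM2, the activating receptor that signals through TYROBP, was counted 0 times in the run 1 and 3 times in the run 2 library of the P8 controls (0 and 0.535 CPM), and a count of 0 in the run 1 library allows up to 0.743 CPM after TMM scaling. The P7+24h injured libraries had 10 and 31 counts (2.77 and 4.96 CPM), the P29 control 40 counts (10.1 CPM, exact 95% binomial interval 7.23 to 13.8) and the P28+24h injured libraries 45 and 99 counts (13.5 and 16.1 CPM). TREM2 was thus near its floor in the P8 cord, and the 4 groups did not overlap. Of all genes tested, 8.55% had both P7+24h libraries above both P8 controls. Both P28+24h libraries lay above the P29 control in 22.2%, and the P29 control above both P8 controls in 40.4%. The share with all 4 groups apart was not computed. The group means were 0.268 CPM ± 0.378 (SD, n = 2) for P8 controls, 3.87 CPM ± 1.55 (SD, n = 2) at P7+24h and 14.8 CPM ± 1.84 (SD, n = 2) at P28+24h. The uninjured P29 cord had a higher TREM2 level than the injured cord of the younger age.

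FCER1G encodes the gamma chain shared by activating Fc receptors and by several other immune receptors. Its counts were 5 and 4 in the P8 controls (1.34 and 0.713 CPM), 15 and 29 at P7+24h (4.15 and 4.64 CPM), 11 in the P29 control (2.78 CPM, interval 1.39 to 4.98) and 38 and 53 at P28+24h (11.4 and 8.62 CPM). Here the order of the middle groups differed from that of TREM2, because the P29 control lay below both P7+24h injured libraries. The group means were 1.03 CPM ± 0.443 (SD, n = 2) for P8 controls, 4.39 CPM ± 0.346 (SD, n = 2) for P7+24h and 10.0 CPM ± 1.97 (SD, n = 2) for P28+24h, and the interval of the P29 control covers the P7+24h mean.

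GP6-like resembles a receptor that in platelets binds collagen and signals through FCER1G, but the description gives only a similarity. Its counts were 2 and 3 in the P8 controls (0.537 and 0.535 CPM), 13 and 29 at P7+24h (3.60 and 4.64 CPM), 19 in the P29 control (4.80 CPM, interval 2.89 to 7.50) and 51 and 121 at P28+24h (15.3 and 19.7 CPM). The P29 control was close to the P7+24h libraries, whose mean was 4.12 CPM ± 0.735 (SD, n = 2), and these neighbours did not differ beyond that spread. The P28+24h mean of 17.5 CPM ± 3.11 (SD, n = 2) stood apart from all others.

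SIGLEC10-like resembles lectins that bind sialic acid on cell surfaces. The description gives only a similarity, and whether the gene encodes an inhibitory receptor was not checked. Its counts were 0 and 1 in the P8 controls (0 and 0.178 CPM), 6 and 12 at P7+24h (1.66 and 1.92 CPM), 25 in the P29 control (6.32 CPM, interval 4.09 to 9.33) and 107 and 95 at P28+24h (32.1 and 15.5 CPM). As for TREM2, no groups overlapped, with the same shares of all genes as given there, and the P29 control lay above the injured younger cord. The P28+24h libraries differed more than those of the other 3 receptor genes, with a mean of 23.8 CPM ± 11.7 (SD, n = 2) and the higher value in run 1.

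DOK3 is a docking protein that restrains immunoreceptor signalling. Its counts were 22 and 4 in the P8 controls (5.90 and 0.713 CPM), 19 and 14 at P7+24h (5.26 and 2.24 CPM), 0 in the P29 control and 19 and 18 at P28+24h (5.70 and 2.93 CPM). In each group with both runs the run 1 library was higher. The count of 0 in the P29 control allows up to 0.862 CPM after TMM scaling. The P8 controls and P7+24h libraries overlapped, with means of 3.31 CPM ± 3.67 (SD, n = 2) and 3.75 CPM ± 2.14 (SD, n = 2).

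The first comparison asks what transection at P7, an age at which neurites can still cross the injury in this species, does to these genes within 24 h. TREM2 was higher by 3.57 ± 0.83 on the log2 scale (fitted log2 fold change ± SE) in the P7+24h cords, SIGLEC10-like by 3.80 ± 1.01, GP6-like by 2.92 ± 0.46 and FCER1G by 2.15 ± 0.54, whereas DOK3 differed by 0.24 ± 1.02. The fitted values of TREM2 and SIGLEC10-like rest on 3 and 1 counts in the P8 controls. As a ratio of pooled counts, TREM2 was 13.2-fold higher (95% counting interval 4.20 to 66.4), SIGLEC10-like 17.3-fold (2.74 to 722), GP6-like 8.09-fold (3.21 to 26.2) and FCER1G 4.71-fold (2.27 to 11.0). The interval for DOK3 included no change, at 1.22-fold (0.709 to 2.13). The median log2 fold change of the 5 genes was 2.92, against 0.01 over all genes tested.

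In these 4 receptor genes both P7+24h libraries exceeded both P8 controls, which was so for 8.55% of all genes tested. Within runs the log2 differences (of TMM-scaled log2 CPM, prior count 2) were 2.85 in run 1 and 2.46 in run 2 for TREM2, 1.39 and 2.14 for FCER1G, 2.06 and 2.38 for GP6-like and 2.24 and 1.92 for SIGLEC10-like. Each of them was thus higher after injury in each run. For DOK3 the within-run differences were -0.12 and 1.22, in opposite directions.

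None of the 5 genes passed the test at P7+24h. With edgeR's quasi-likelihood test over the 4 groups and Benjamini-Hochberg adjustment over all genes, 0 of the 5 were called (a fold of 2 or more with an adjusted p below 0.05), as were 0% of the 13534 genes, and each adjusted p was 1. At an unadjusted p under 0.05 there were 4 of 5, against 0.51% of all genes. The replicate number is the run, and adding it as a block again called 0 of 5 (0.0148% of all genes), with 4 of 5 at an unadjusted p under 0.05 (2.31%). The blocked adjusted p was 0.171 for GP6-like, 0.311 for TREM2, 0.559 for FCER1G and 0.947 for SIGLEC10-like. edgeR's exact test, which the study names as its method, called 0 of 5 (0.0296%) with an adjusted p of 0.0519 for TREM2. The study reports more genes as changed at this age than the exact test called here, so this count does not stand for the study's own calls. DESeq2 called 0 of 5 (0.0148%).

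A likelihood ratio test in the blocked fit, which takes the estimated dispersion as known and so gives smaller p-values than the quasi-likelihood test, called 4 of 5 as raised against 0.266% of all genes. Its adjusted p was 7.32e-05 for TREM2, 0.00025 for GP6-like, 0.00858 for FCER1G and 0.023 for SIGLEC10-like. These calls turned on the P7 libraries: 0 of 5 were left without P7+24h injured replicate 2, 1 without P8 control replicate 2 (TREM2) and 2 without P8 control replicate 1 (TREM2 and GP6-like), and 4 without P7+24h injured replicate 1 or either P28+24h library. The count of 0 from the blocked quasi-likelihood test was not stable either, with 4 of 5 called without either P28+24h library, 3 without P7+24h injured replicate 1, 1 without P8 control replicate 2 and 0 without P8 control replicate 1 or P7+24h injured replicate 2.

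Transection at P28, an age at which neurites no longer cross the injury, was compared with the P29 control. SIGLEC10-like was higher by 1.87 ± 0.75 on the log2 scale, GP6-like by 1.78 ± 0.47 and FCER1G by 1.78 ± 0.63, while TREM2 differed by 0.47 ± 0.72. The ratios of pooled counts were 3.12-fold (95% counting interval 2.06 to 4.94) for SIGLEC10-like, 3.50-fold (2.17 to 5.96) for GP6-like, 3.20-fold (1.71 to 6.63) for FCER1G and 1.39-fold (0.975 to 2.03) for TREM2. DOK3 had 37 counts against 0, and was at least 5.58-fold higher than a control set to that floor (7.78-fold for the run 1 library alone and 3.39-fold for the run 2 library alone). The intervals of the first 3 genes overlap one another, and that of TREM2 includes no change.

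Both P28+24h libraries exceeded the P29 control in all 5 genes, as they did in 22.2% of genes tested, and the median log2 fold change of the 5 was 1.78 against 0.05 over all genes. In run 1, the only run with both groups, the log2 differences were 0.45 for TREM2, 1.95 for FCER1G, 1.65 for GP6-like, 2.33 for SIGLEC10-like and 4.08 for DOK3. Against the same run 1 control, the run 2 library gave 0.47, 1.33, 1.77, 1.06 and 2.98 in that order of genes. SIGLEC10-like and DOK3 were the genes in which the runs were furthest apart.

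The quasi-likelihood test called 0 of the 5 genes at P28+24h (0% of all genes), each at an adjusted p of 1, with 4 of 5 at an unadjusted p under 0.05 (1.16%). With the replicate block 0 of 5 were called (0.754%), with 4 of 5 at an unadjusted p under 0.05 (16.3%), and the adjusted p was 0.0508 for DOK3, 0.0552 for SIGLEC10-like, 0.0818 for GP6-like, 0.109 for FCER1G and 0.81 for TREM2. That count of 0 did not hold without 1 library. The same blocked test then called DOK3 in every such fit, and SIGLEC10-like in all but that without P28+24h injured replicate 1. These fits have fewer residual degrees of freedom than the full blocked fit, so their calls are not stronger support for either gene. The log2 fold change of SIGLEC10-like ran from 0.78 to 2.35 in them. Because no P29 control was sequenced in run 2, the block takes the run difference at P29 from the other groups. The exact test called 0 of 5 (0.0222%) and DESeq2 0 of 5 (0%). At this age too the study reports many more genes as changed than the exact test called here. The likelihood ratio test with the block called 4 of 5 as raised, against 2.61% of all genes, with an adjusted p of 0.000373 for SIGLEC10-like, 0.00594 for GP6-like, 0.0105 for FCER1G and 3.04e-05 for DOK3. TREM2 was not among them, at an adjusted p of 0.812. Without P28+24h injured replicate 1 DOK3 alone was called, and the other counts without 1 library were 3 or 4.

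The age comparison asks how these genes differ between uninjured cords of P8 and P29. From P8 to P29 control, SIGLEC10-like was higher by 5.86 ± 1.00 on the log2 scale, TREM2 by 5.20 ± 0.88, GP6-like by 3.40 ± 0.52 and FCER1G by 1.76 ± 0.66. The ratios of counts were 38.7-fold (95% counting interval 12.3 to 196) for TREM2, 11.0-fold (3.99 to 37.8) for GP6-like, 3.55-fold (1.34 to 9.69) for FCER1G and 72.6-fold (11.9 to 2980) for SIGLEC10-like, the last against 1 count. DOK3 was at least 3.54-fold lower against the floor, relative to the mean of the P8 controls, of which the run 2 library was itself under the floor, so that the bound rests on the run 1 library. The P29 control exceeded both P8 controls in 4 of 5 genes, as in 40.4% of all genes tested.

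GP6-like passed the quasi-likelihood test for age (adjusted p = 0.0408), the only one of the 5 against 1.79% of all genes, while TREM2 and SIGLEC10-like were just beyond the threshold at 0.0521 and 0.0526. The call for GP6-like was lost without any 1 of the 6 libraries that could be left out (adjusted p 0.0764 to 0.302, log2 fold change 3.39 or 3.40). With the replicate block 4 of 5 were called, against 21.4% of all genes. TREM2 rose by 5.38 ± 0.70 on the log2 scale (adjusted p = 0.000262), SIGLEC10-like by 5.34 ± 0.93 (adjusted p = 0.00177) and GP6-like by 3.51 ± 0.61 (adjusted p = 0.00181), and DOK3 was called as lower (adjusted p = 0.0125). The DOK3 call was lost without P8 control replicate 1 (adjusted p = 0.122), and the other 3 calls held in each of the 6 blocked fits without 1 library. FCER1G did not pass, with 1.57 ± 0.69 and an adjusted p of 0.112. The exact test called 3 of 5 (6.97%), DESeq2 3 of 5 (7%), and the blocked likelihood ratio test called 4 of 5 (24%). The plot of log2 changes sets the age difference beside both responses.

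**Figure D2:**
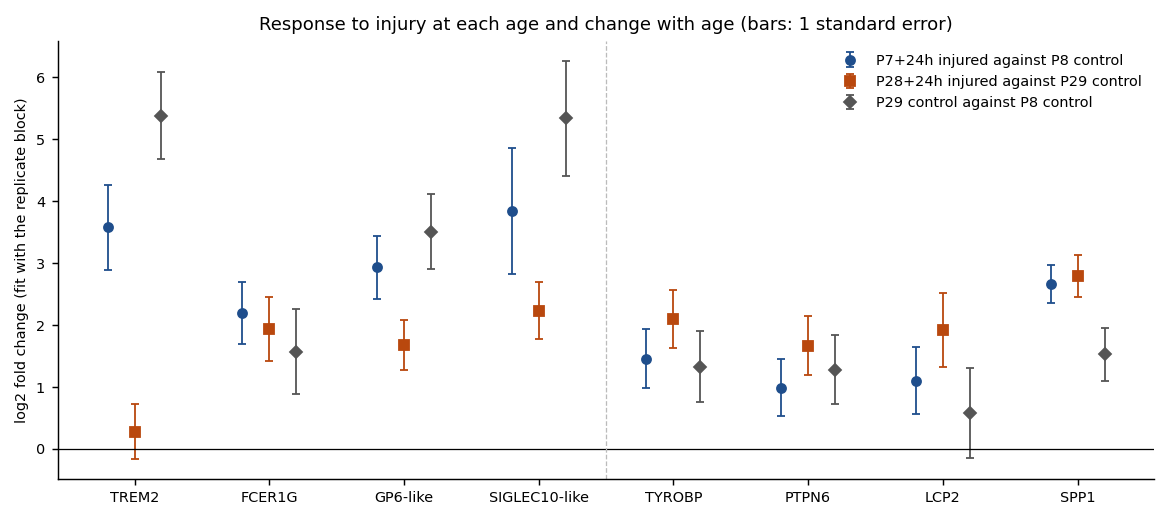
Fitted log2 fold change (vertical axis) in the fit with the replicate block, with bars of 1 standard error, for 4 receptor genes (left of the dashed line) and 4 partner or pathway genes. Circles compare P7+24h injured with P8 control, squares P28+24h injured with P29 control and diamonds P29 with P8 control, and for TREM2 these lie at 3.58, 0.28 and 5.38. DOK3 is left out because its P29 control count of 0 leaves its fitted change without a fixed size.

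Whether the response differed between the ages was tested as the P28 response minus the P7 response. For TREM2 the difference was -3.10 ± 1.09 on the log2 scale, for SIGLEC10-like -1.93 ± 1.23, for GP6-like -1.13 ± 0.62 and for FCER1G -0.37 ± 0.77. These 4 responses were therefore smaller at P28 as fitted, and for FCER1G the difference was less than its standard error. DOK3 ran the other way, with a larger response at P28, and its fitted size depends on the 0 counts of the P29 control. The quasi-likelihood test called 0 of 5 (0% of all genes), with 1 of 5 at an unadjusted p under 0.05 (0.436%), and that gene was TREM2. The replicate block also called 0 of 5 (0.0369%), with 2 of 5 at an unadjusted p under 0.05 (9.4%), TREM2 and DOK3, and DESeq2 called 0 of 5 (0%). Without 1 library the blocked test called 0 to 2 of 5.

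With the likelihood ratio test and the block, TREM2 was called with a smaller response at P28 (-3.30 ± 0.82, adjusted p = 0.00989), 1 of 5 against 0.281% of all genes in that direction. DOK3 was called with a larger one (adjusted p = 0.00471), 1 of 5 against 1.2%. The TREM2 call was lost without P8 control replicate 1 (adjusted p = 0.288) or P7+24h injured replicate 2 (adjusted p = 0.526), and the DOK3 call without P8 control replicate 1 (adjusted p = 0.4). Both comparisons of injury with control are against groups that also form the age comparison, so that a high P29 control lowers the P28 response and raises the age difference of the same gene. For TREM2 the level after injury was still higher at P28+24h than at P7+24h, at 14.8 against 3.87 CPM.

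Of 104 symbols in the lists of ITAM receptors and adaptors, their downstream proteins, inhibitory proteins and genes raised with TREM2 in activated microglia, 13 (12.5%) could be tied to an identifier, through tables of genes that the study called, and 10 besides the 5 genes above were tested. A share this low says nothing of the lists as a whole. At P7+24h 9 of the 10 had a higher fitted level than in P8 controls and at P28+24h 10 of 10 had a higher one than in the P29 control. The median log2 fold changes were 0.97 and 1.62. Because the 10 genes were found through the study's lists of called genes, a rise in most of them is not independent evidence. The quasi-likelihood test called 0 of the 10 in either comparison (0% of all genes). The blocked fit called 1 as raised in each, SPP1 both times, against 0.0148% and 0.584% of all genes. The likelihood ratio test with the block called 2 and 8 as raised, against 0.266% and 2.61% of all genes.

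TYROBP, the adaptor of TREM2, was counted 14 and 15 times in the P8 controls (3.76 and 2.67 CPM), 37 and 43 at P7+24h (10.2 and 6.87 CPM), 41 in the P29 control (10.4 CPM) and 180 and 87 at P28+24h (54.0 and 14.2 CPM). Both injured groups lay above their controls. Of all genes tested, 8.55% showed this for the younger age and 22.2% for the older, which has 1 control library. The P28+24h libraries differed widely, with the higher value in run 1. The fit gave log2 fold changes of 1.44 ± 0.78 at P7+24h and of 1.70 ± 0.94 at P28+24h, and the blocked fit 1.46 ± 0.47 (adjusted p = 1) and 2.10 ± 0.47 (adjusted p = 0.0658). The likelihood ratio test with the block called it at P28+24h (adjusted p = 0.00334) and not at P7+24h (adjusted p = 0.272). The call was lost without P28+24h injured replicate 1 (adjusted p = 0.278). Against the run 1 control, the log2 difference of TYROBP was 2.39 for the run 1 library and 0.25 for the run 2 library, where TREM2 had 0.45 and 0.47. The same test called TYROBP as higher in P29 than in P8 control (1.37 ± 0.55, adjusted p = 0.0389), a call lost without P8 control replicate 1 or either P7+24h library.

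Downstream of the adaptors, VAV1, a signalling protein of blood cells, gave 2 and 3 counts for P8 controls, 11 and 8 at P7+24h, 1 in the P29 control and 13 and 23 at P28+24h. LCP2, the scaffold SLP-76, had 6 and 4, 11 and 11, 7, and 21 and 28 counts in the same order of groups. For both the injured libraries of each age exceeded their controls in CPM, as in 8.55% of genes tested at P7+24h and 22.2% at P28+24h. Neither gene was called by the quasi-likelihood test with or without the block. The likelihood ratio test with the block called both at P28+24h, VAV1 at an adjusted p of 0.00379 and LCP2 at 0.0316. The actin regulators WAS and HCLS1 were called by the same test at P28+24h (adjusted p = 0.018 and 0.0471), with log2 fold changes of 1.90 ± 0.55 and 1.47 ± 0.48. Without 1 library the VAV1 call held in 6 of 6 fits, that of HCLS1 in 2, and those of LCP2 and WAS in 1, the fit without P28+24h injured replicate 2.

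The phosphoinositide 3-kinase subunits PIK3CD and PIK3CG differed from each other. PIK3CD was counted 328 and 333 times in the P8 controls (88.0 and 59.3 CPM), 228 and 413 at P7+24h (63.1 and 66.0 CPM), 100 in the P29 control (25.3 CPM) and 143 and 528 at P28+24h (42.9 and 85.9 CPM). It was the only pathway gene called as lower in P29 than in P8 control in the blocked fit, by -1.21 ± 0.36 on the log2 scale (adjusted p = 0.0277). At P28+24h the likelihood ratio test with the block called it as raised, by 1.21 ± 0.39 (adjusted p = 0.0418), a call kept in 2 of 6 fits without 1 library. PIK3CG had 3 and 6 counts in P8 controls, 1 and 18 at P7+24h, 13 in the P29 control and 46 and 79 at P28+24h, and none of the 3 edgeR fits called it after injury (likelihood ratio test with the block, adjusted p = 0.11 at P28+24h). The same test called PIK3CG as higher in P29 than in P8 control (2.31 ± 0.81, adjusted p = 0.0165). In that age comparison its calls for PIK3CD and PIK3CG were lost without P8 control replicate 1 (adjusted p = 0.395 and 0.0664).

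PTPN6, the phosphatase SHP-1 that binds ITIM motifs, had 17 and 8 counts in P8 controls (4.56 and 1.43 CPM), 16 and 35 at P7+24h (4.43 and 5.59 CPM), 27 in the P29 control (6.83 CPM) and 75 and 90 at P28+24h (22.5 and 14.6 CPM). The young groups overlapped and the older ones did not, with both P28+24h libraries above the P29 control, as in 22.2% of genes tested. The likelihood ratio test with the block called it at P28+24h (1.67 ± 0.49, adjusted p = 0.0193), but not without P28+24h injured replicate 1 (adjusted p = 0.0886). SIGLEC1, or sialoadhesin, is a lectin of macrophages that was placed in both the inhibitory and the microglial list, although it is not known as an inhibitory Siglec. It had 1 and 4 counts in P8 controls, 5 and 48 at P7+24h, 0 in the P29 control and 2 and 13 at P28+24h. Its P7+24h value rested mainly on the run 2 library, and the pooled ratio was 10.2-fold (95% counting interval 4.11 to 32.7), with a blocked adjusted p of 9.12e-05 by the likelihood ratio test and 0.269 by the quasi-likelihood test. The former call was lost without P8 control replicate 2 (adjusted p = 1).

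SPP1, or osteopontin, a secreted protein that activated microglia and macrophages make in quantity, was the only pathway gene that the blocked fit called in both injury comparisons. Its counts were 11 and 14 in the P8 controls (2.95 and 2.50 CPM), 85 and 77 at P7+24h (23.5 and 12.3 CPM), 31 in the P29 control (7.84 CPM) and 161 and 278 at P28+24h (48.3 and 45.2 CPM). In the blocked fit it rose by 2.66 ± 0.31 at P7+24h (adjusted p = 0.0221), by 2.79 ± 0.34 at P28+24h (adjusted p = 0.0148) and by 1.53 ± 0.43 from P8 to P29 control (adjusted p = 0.0206). The difference between its responses was 0.13 ± 0.52 on the log2 scale in the blocked fit (adjusted p = 0.965), where that of TREM2 was -3.30 ± 0.85 (adjusted p = 0.223).

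**Figure D3:**
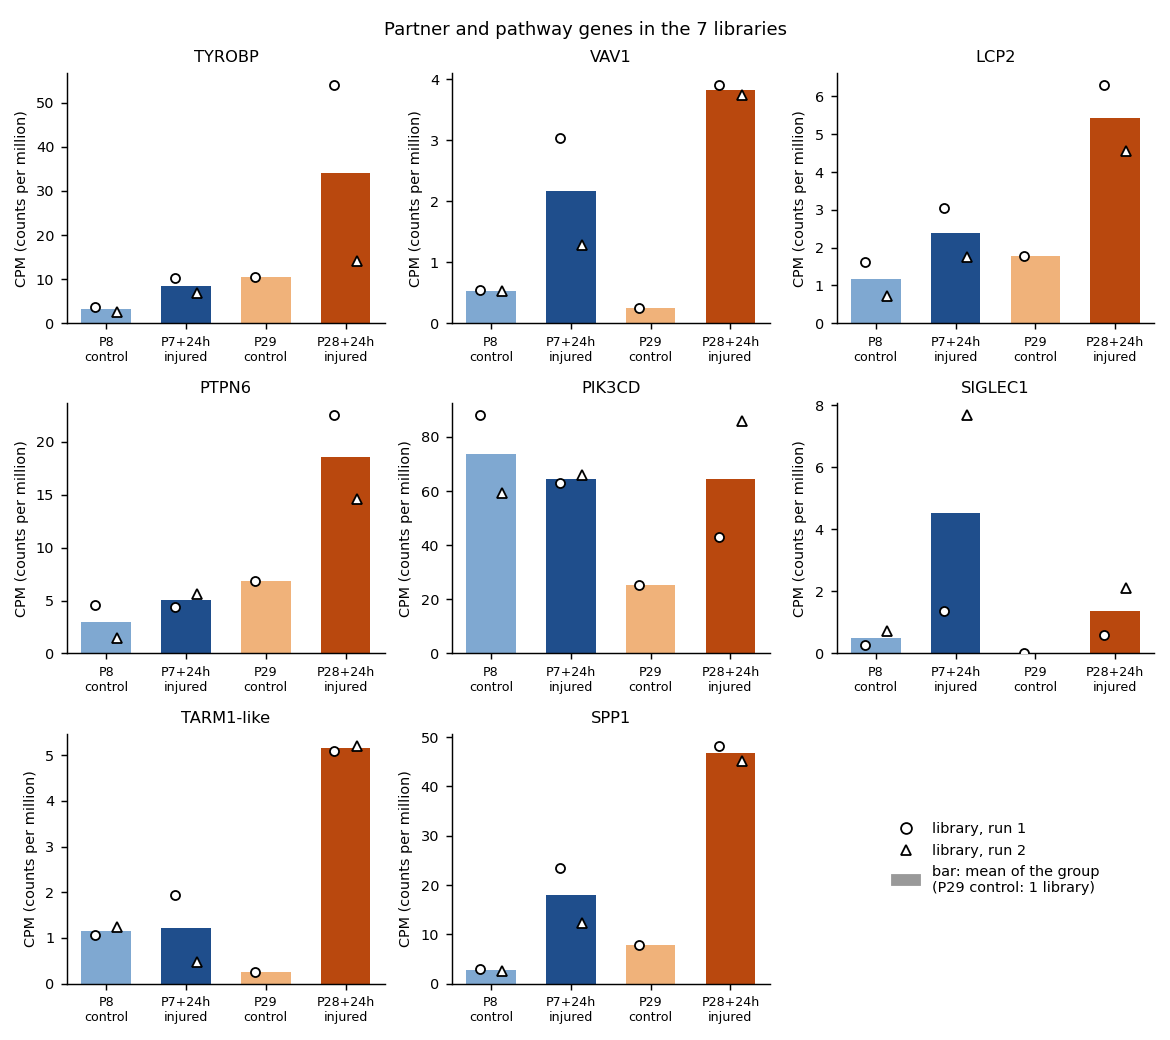
CPM (vertical axis, starting at 0 and different in each panel) of 8 partner or pathway genes in the 4 groups, with circles for run 1 libraries, triangles for run 2 libraries and bars for group means (n = 2, and 1 for the P29 control). Both P28+24h injured libraries lie above the P29 control in every panel, as in 22.2% of all genes tested. The TYROBP libraries of the P28+24h group are far apart, at 54.0 and 14.2 CPM.

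Other gene rows described as similar to GP6 did not share the pattern of GP6-like. ENSMODG00000006799 had 25 and 24 counts in P8 controls, 38 and 33 at P7+24h, 14 in the P29 control and 65 and 19 at P28+24h, and ENSMODG00000003960 had 281 and 172, 359 and 210, 244, and 556 and 217 counts. Neither was called at P7+24h by any of the 3 edgeR fits, with log2 fold changes of 0.55 ± 0.94 and 0.36 ± 0.93. At P28+24h ENSMODG00000003960 was called by the likelihood ratio test with the block (1.19 ± 0.34, adjusted p = 0.018; 0.239 without P28+24h injured replicate 1), although its run 2 library, at 35.3 CPM, lay below the run 1 control at 61.7 CPM. Where copies in this receptor family are near-identical, the counting may have split their reads or dropped them.

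A row similar to TARM1, an activating receptor of myeloid cells, had 4 and 7 counts in P8 controls, 7 and 3 at P7+24h, 1 in the P29 control and 17 and 32 at P28+24h. It was near its floor in the P29 control and overlapped between the young groups. The P28+24h ratio of pooled counts was 18.9-fold (95% counting interval 3.25 to 764), with an adjusted p of 0.0818 in the blocked fit and 0.000908 by its likelihood ratio test. The latter also called its response as larger at P28 than at P7 (4.57 ± 1.28, adjusted p = 0.0317), a call kept in 3 of 6 fits without 1 library. SYK, INPP5D, PLCG2, DOK1 and DOK2 had no identifier at hand and were not analysed here.

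Over the 7 libraries, the genes most like TREM2 in log2 CPM, among those with a name, were the tumour necrosis factor receptor TNFRSF1A (Pearson's r = 0.973), the complement subunit C1QA (0.960) and GP6-like (0.957). Those most like FCER1G were the complement receptor VSIG4 (0.980), a gene similar to the protease CTSC (0.976) and C1QB (0.973). GP6-like was closest to C1QA (0.992), C1QC (0.989) and a gene similar to MS4A4A (0.983). SIGLEC10-like was closest to a gene similar to the caspases CASP4, CASP5 and CASP12 (0.983), to C1QC (0.982) and to SPI1 (0.971), the transcription factor of the myeloid lineage. All these neighbours were sought among genes with a name, of which there were 770. The names come from the study's own tables, mainly of genes it called in these libraries. Among the 13533 other genes tested, the neighbours of SIGLEC10-like ranked 10, 13 and 23 and those of TREM2 4, 11 and 17. Those of GP6-like ranked 1, 2 and 4, and those of FCER1G 2, 3 and 4. That immune genes are among them is therefore not independent evidence. These values are a description over 7 libraries that share depth, run and age differences.

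DOK3 had other named neighbours, the formin FMNL1 (0.985), the homeobox gene HOXB1 (0.978) and the ciliary transport gene IFT172 (0.961). Its r with the receptor genes was low, from -0.107 with TREM2 to 0.391 with FCER1G, while the receptor genes had values from 0.870 to 0.965 with one another and from 0.819 to 0.935 with TYROBP. The docking protein thus did not follow the receptors across the libraries.

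Markers of other cells moved with some of these values. The 4 markers of monocytes and macrophages at hand (of 14 in the list; ITGB2, MARCO, MPEG1 and SPI1) summed to 8.42 and 12.7 CPM after TMM scaling in P8 controls, 22.6 and 53.4 at P7+24h, 23.0 in the P29 control and 79.1 and 120 at P28+24h, and none of them was at 0 in any library. Like the receptor genes, this sum was lowest in the P8 controls and highest at P28+24h. By library SPI1 kept that order, and MARCO, ITGB2 and MPEG1 did not. MARCO was at 7.09 and 4.19 at P7+24h against 7.77 and 3.73 at P28+24h. ITGB2 and MPEG1 in run 1 at P28+24h (13.1 and 22.2) lay below run 2 at P7+24h (16.3 and 23.9). MPEG1 in run 1 at P7+24h (3.68) lay below run 2 of the P8 controls (4.94). The 3 microglial markers at hand (of 12; CSF1R, SALL1 and SIGLEC1) summed to 39.4 to 53.6 in P8 controls, 45.4 to 69.8 at P7+24h, 87.6 in the P29 control and 57.6 to 94.5 at P28+24h, mostly from SALL1, and SIGLEC1 was at 0 in the P29 control. CSF1R, the receptor on which microglia and macrophages depend, was also lowest in P8 controls and highest at P28+24h, at 0.743 and 1.15 CPM after TMM scaling in P8 controls, 2.10 and 5.08 at P7+24h, 2.01 in the P29 control and 6.71 and 21.9 at P28+24h. SALL1 went another way, at 85.6 in the P29 control against 50.1 and 70.5 at P28+24h. How far cell numbers took part in the receptor levels was not tested.

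Blood markers differed between runs. The 6 erythroid markers at hand (of 10) summed to 362 CPM in the run 1 P8 control against 60.6 in run 2, to 249 against 57.6 at P7+24h and to 551 against 153 at P28+24h, with 238 in the P29 control. The neutrophil markers CSF3R, S100A8 and S100A9 (3 of 12 in the list) summed to 17.1 and 3.63 in P8 controls, 26.0 and 6.73 at P7+24h, 5.46 in the P29 control and 17.3 and 18.2 at P28+24h, and S100A9 was at 0 in the run 2 P8 control. The 3 platelet and megakaryocyte markers at hand (of 12; ITGA2B, THBS1 and VWF) summed to 37.6 and 15.8, 32.0 and 24.7, 32.2, and 65.3 and 87.6 in the same order of groups, and no marker of lymphocytes or mast cells was at hand. DOK3 and the erythroid sum were higher in run 1 than in run 2 in each group with both runs. The neutrophil and platelet sums were higher in run 2 at P28+24h. In the P29 control, which is 1 library, DOK3 was at 0 and the erythroid sum was 238. The part of blood cells in the level of DOK3 was not tested.

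**Figure D4:**
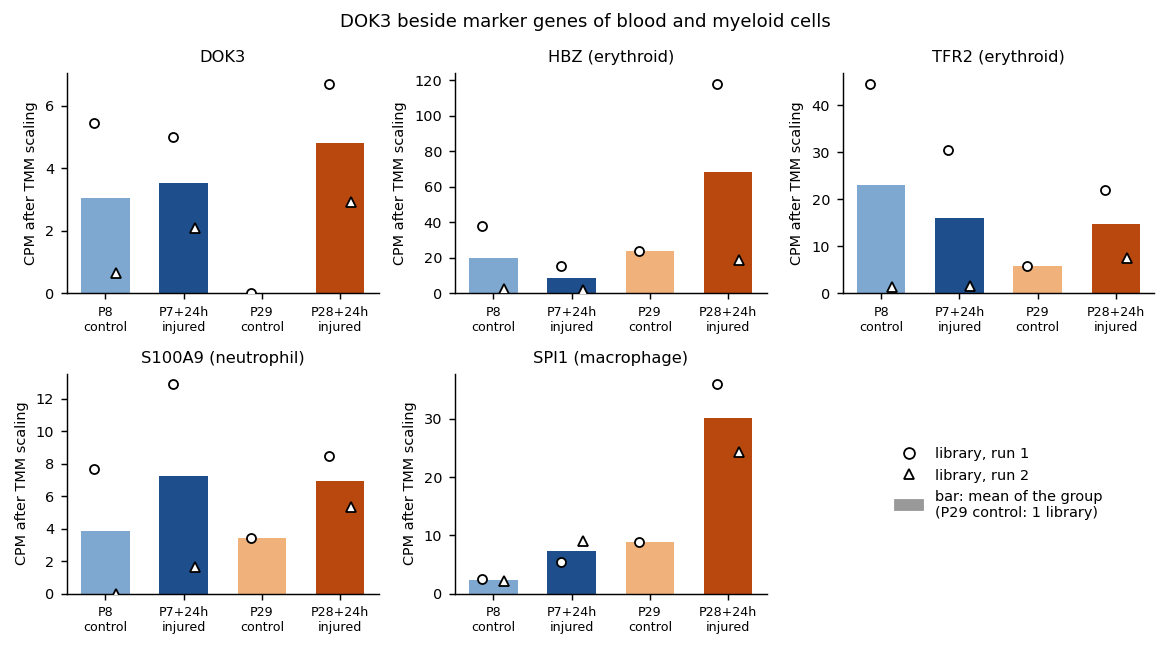
CPM after TMM scaling (vertical axis, starting at 0 and different in each panel) of DOK3, the erythroid genes HBZ and TFR2, the neutrophil gene S100A9 and the macrophage transcription factor gene SPI1 in the 4 groups, with circles for run 1 libraries, triangles for run 2 libraries and bars for group means (n = 2, and 1 for the P29 control). DOK3, HBZ, TFR2 and S100A9 are higher in run 1 than in run 2 in each group with both runs, whereas SPI1 is highest in the P28+24h injured cords. The neutrophil gene CSF3R, not drawn, went the other way at P28+24h, at 2.12 in run 1 and 7.46 in run 2.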

How the data were processed

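RNA from the rostral spinal cord segment of 7 pools of 2 opossums was sequenced as 100 bp single-end reads. The authors mapped them with Bowtie2, counted reads on nuclear genes of Ensembl release 69 with HTSeq in union mode, and deposited unscaled counts for 21314 genes. Use of strand is not given in the sources used here. All rows name genes.

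From the counts, TMM factors were computed and 13534 genes passing filterByExpr (minimum count 10) were tested with edgeR 4.0.16, using the quasi-likelihood test over 4 groups (3 residual degrees of freedom) with Benjamini-Hochberg adjusted p-values. Genes were called at an adjusted p below 0.05 with a fold of 2 or more. The study used the exact test of edgeR 2.6.12 with these limits, and the exact test run here did not reproduce its calls. The likelihood ratio test with the block came closer to the study's numbers of genes. It called 36 genes as raised and 0 as lowered at P7+24h, and 353 as raised and 140 as lowered at P28+24h. Whether these were the same genes as the study's was not compared. The replicate numbers were used as a block, because the labels give them as run 1 and run 2. That the runs came from separately collected samples is stated by the study. The labels do not say that samples are paired within a run. The run 2 minus run 1 differences of 2 groups correlated at 0.699 to 0.802 across genes. With the block, 2 residual degrees of freedom were left and the common dispersion was 0.0181, against 0.141 without it. P-values measure the spread between pools.

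Alternatives were the block, with and without a likelihood ratio test, the exact test, DESeq2 1.42.0, RLE factors, library size only, other filters, the compared groups only, no fold threshold, and leaving out each library. Leaving out libraries in the blocked fits was added after seeing the data. Blocked fits without 1 library have fewer residual degrees of freedom than the full blocked fit. Calls that appear only in them are therefore not stronger support. Intervals on ratios are exact binomial intervals on pooled counts. The fits were tested on simulated data. R 4.3.3, limma 3.58.1, Python 3.11 and scipy 1.17.1 were used.

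Genes were named from the study's supplementary tables. The text names the 5 genes, pathway list genes called in the blocked fit, set partners, further GP6-like or TARM1-like rows, and the 3 named genes most correlated with each; WAS, HCLS1, PIK3CG and the marker genes were named after their values were seen. The genes and lists were chosen with earlier results of these data known. No genome or sequence of the build used was at hand.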

Additional observations from a re-analysis of the deposited data

How the results depend on the processing

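The P29 control has 1 library, so it could not be left out and the comparisons with it take their spread from other groups. Counts of 0 to 5 in the P8 controls limit the precision of every fold against them except that of DOK3. The number of the 5 genes called was moved by the likelihood ratio test with the replicate block, to 4 at P7+24h, 4 at P28+24h and 2 for the difference in response, from 0 in each. For P29 against P8 control the count of 1 became 4 with the replicate block, 4 with its likelihood ratio test, 3 with the exact test, 3 with DESeq2, 3 with no filter on low counts, 2 with the compared groups only and 0 with library size only. Leaving out 1 library, in fits with or without the block, gave 0 to 4 at P7+24h, 0 to 4 at P28+24h, 0 to 5 for P29 against P8 control and 0 to 2 for the difference. Direction turned for DOK3 at P7+24h, to -0.65 without P8 control replicate 2 (-0.14 with the block) and to -0.48 without P7+24h injured replicate 1, in a range of -0.65 to 2.34 without 1 library. It turned for TREM2 at P28+24h, to -0.49 with the block and without P28+24h injured replicate 1. For FCER1G it turned in the difference in response, to 0.05 without P8 control replicate 2 and to 0.36 with the block and without P7+24h injured replicate 2, in a range of -0.83 to 0.05 without 1 library and no block. The causes were not tested. Of the log2 fold changes of single genes under all alternatives, 371 kept direction and call, 141 passed the threshold where the quasi-likelihood test without the block had not, 8 lost it and 9 turned direction.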
